A study of Mus musculus with 3 samples.

Results

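The genes described here are 10: 6 of the subcortical maternal complex or associated with it (Nlrp5, Ooep, Khdc3, Tle6, Padi6 and Nlrp2), the germ cell gene Nlrp14, and the maternal-effect genes Zar1, Npm2 and Dppa3. They were found in the scanner tables by gene name or older name (Nalp5, Nalp2 and Nalp14 for the Nlrp genes, 2410146L05Rik for Ooep and 2410004A20Rik for Khdc3). Each of the 10 had 1 probe with 1 spot, so the genes account for 10 of 41174 probes on the array. The RefSeq transcript accession of each probe gave the same symbol, and by accession no further probe of these genes was found.

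The samples were pools of mouse four-cell embryos. Pools of the HP group came from oocytes held at 20 MPa of hydrostatic pressure for 60 min at 37 °C. Control oocytes were handled alike without pressure, and both kinds were fertilised by sperm injection, per the sample labels, and grown to the four-cell stage. The series title speaks of in vitro fertilisation instead, a conflict the sources used here do not settle. HP replicates 1, 2 and 3 held 44, 30 and 37 embryos, and the control replicates held 36, 33 and 24, which makes 3 pools per group. Each array carried the HP pool in Cy5 and the control pool of the same number in Cy3, so dye and treatment cannot be told apart. The design calls the pools biological replicates, but strain and the number of females behind each pool were not given in the sources used here. A p-value thus reflects how far these 3 pairs of pools vary and nothing wider.

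Maternal-effect genes are transcribed in the growing oocyte, and their products carry the embryo through its first divisions, before and while its own genome takes over. The subcortical maternal complex is a multiprotein assembly beneath the oocyte membrane that is needed for cleavage, and Nlrp5, Ooep, Tle6 and Khdc3 encode its core. Most maternal mRNA is degraded after fertilisation while the proteins can persist. The arrays measure only mRNA, so a dim probe says nothing about the protein.

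The probes are shown because every value below comes from a single 60-base oligonucleotide per gene, and capitals mark the triplets taa, tag and tga in any frame. The positions are mm7 coordinates of the array design. No mm7 annotation was used, so exon and UTR were not assigned. Whether the probe of an Nlrp gene also binds transcripts of its relatives was not tested, which bears on Nlrp5, Nlrp2, Nlrp14 and the other Nlrp genes below. Probes with no frame free of these triplets cannot lie wholly in coding sequence as printed. That held for Nlrp14 and Dppa3, of which the first 30 bases are shown.
Khdc3 (A_51_P448127, chr9:73136849-73136908, plus strand): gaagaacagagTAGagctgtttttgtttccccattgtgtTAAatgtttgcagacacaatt
Tle6 (A_51_P368591, chr10:81386150-81386209, minus strand): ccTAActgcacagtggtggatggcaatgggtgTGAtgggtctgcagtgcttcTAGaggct
Nlrp2 (A_51_P181031, chr7:4890424-4890483, minus strand): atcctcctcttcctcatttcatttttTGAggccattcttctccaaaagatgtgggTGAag
Nlrp14 (A_51_P371355, chr7:103093907-103093966, plus strand): cTGAagaaccggatgtgcctgTAAaaaatt
Dppa3 (A_51_P195044, chr6:122666937-122666996, plus strand): TAAccttTAAattgTAGaTAGgatgcacaa
Zar1 (A_51_P145380, chr5:71952702-71952840, minus strand): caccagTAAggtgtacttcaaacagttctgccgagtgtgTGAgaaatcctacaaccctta
Nlrp5 (A_51_P415293, chr7:20212190-20214713, plus strand): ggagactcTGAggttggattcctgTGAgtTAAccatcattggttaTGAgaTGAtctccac
Ooep (A_51_P295594, chr9:78453807-78453866, minus strand): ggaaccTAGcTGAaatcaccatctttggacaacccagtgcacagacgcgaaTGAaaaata

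The probes of Zar1 and Nlrp5 cover 139 and 2524 bases of the genome with 60 bases of sequence, so they run across a gap in it, whereas the other 8 match an unbroken stretch. The probes of Padi6 (chromosome 4, 140106080 to 140106139) and Npm2 (chromosome 14, 65291932 to 65291991) lie on the minus strand. GC content was 36.7% for Khdc3, 55% for Tle6, 41.7% for Nlrp2, 38.3% for Nlrp14 and 35% for Dppa3. It lay between 45% and 53.3% for Nlrp5, Ooep, Padi6, Zar1 and Npm2. Over the array, 21.7% of probes had no open frame. The share bright enough to test was 21.6% among them and 20.7% among the others.

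A spot counted as measured when the scanner software called it well above background, and a probe was tested when its Cy5 spots, or its Cy3 spots, met this on 2 or more arrays, which left 8590 probes. Of the 10 genes 5 were tested: Khdc3, Tle6, Nlrp2, Nlrp14 and Dppa3. The probes of Nlrp5, Ooep, Padi6 and Zar1 were not well above background in any of the 6 pools, and that of Npm2 only in control pool 2. So only Khdc3 and Tle6 of the 4 core genes could be followed. Levels are log2 signals of each channel after loess within arrays and quantile scaling of the average intensity between arrays. Background correction adds an offset of 50, which pulls the ratio of a dim probe towards 0. Ratios are HP over control within an array, on the log2 scale.

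**Figure D1:**
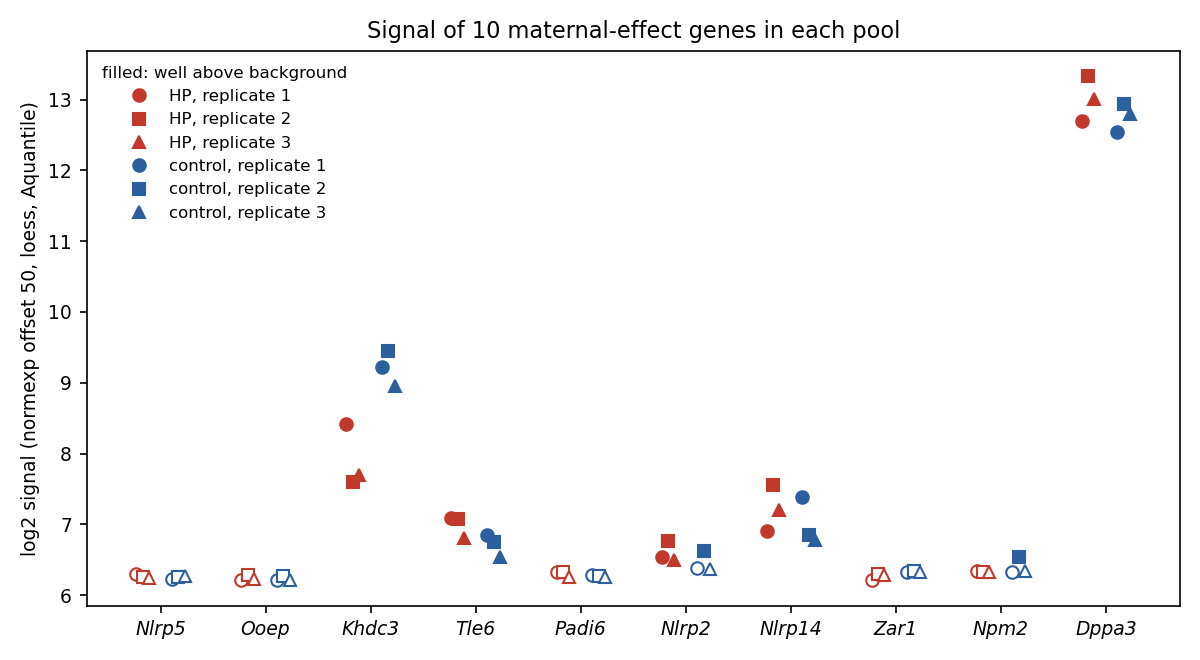
Normalised log2 signal (vertical axis) of each of the 10 genes (horizontal axis) in 3 HP pools (red) and 3 control pools (blue). Circles, squares and triangles are replicates 1, 2 and 3, and filled symbols are spots well above background. The 3 HP pools of Khdc3 lie below its 3 control pools, while Nlrp5, Ooep, Padi6 and Zar1 have open symbols throughout.

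Khdc3 encodes FILIA, a KH-domain protein of the complex that is needed for correct chromosome segregation in cleaving embryos. Its mean spot signal before background correction was 249, 144 and 123 in HP pools 1, 2 and 3, over local backgrounds of 38, 35 and 40. In the control pools it was 677, 1124 and 540 over 27, 27 and 31. After normalisation the log2 signal was 8.42, 7.60 and 7.70 in the HP pools. The control pools were at 9.23, 9.45 and 8.95. Every HP pool lay below every control pool, and the nearest were HP pool 1 and control pool 3, at 8.42 and 8.95. Of all tested probes 25.7% had HP and control pools that did not overlap.

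The log2 ratio of Khdc3 was −0.80, −1.85 and −1.25 on arrays 1, 2 and 3. The mean was −1.30 ± 0.24 (moderated standard error, n = 3), a control signal 2.47-fold that of HP, with a 95% interval from −1.95 to −0.65. Of the 8590 tested probes, 0.501% had a lower mean ratio. The limma p was 0.00497, and 0.180 after Benjamini-Hochberg adjustment over all tested probes, so the difference did not pass 0.05. Over the other settings tried the mean ran from −2.06 to −1.03, and it was below 0 in each of 16. Settings that only reuse, leave out or reweight the 3 ratios could not change that sign, since all 3 were below 0. The adjusted p ran from 0.0422, with median centring of each array in place of loess, to 0.520. In bulk pools such as these, fewer cells with the transcript and less of it per cell cannot be told apart. Equal amounts of RNA, 240 pg, were amplified from every pool.

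Tle6, a Groucho-related member of the core complex, lay close together on the arrays. Its mean spot signal was 88.7, 101 and 81.0 in the HP pools and 93.7, 115 and 73.5 in the control pools. The log2 signal was 7.09, 7.08 and 6.81 in HP and 6.85, 6.76 and 6.53 in control. The groups overlapped, since HP pool 3 lay under control pool 1, but within each array HP was the higher. The log2 ratios were 0.24, 0.32 and 0.28, with a mean of 0.28 ± 0.10 (moderated standard error). The limma p was 0.0510, and 0.282 after adjustment. The SD over arrays was 0.04, and 3.43% of tested probes had a smaller SD. With an offset of 0 the 3 ratios were 0.41, 0.48 and 0.50, and with the scanner's processed signals 0.67, 0.73 and 1.57. With median centring they were −0.014, −0.18 and 0.071, a mean of −0.040.

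Nlrp2 encodes an NLR-family protein of the oocyte that associates with the complex. Its spot was well above background in all 3 HP pools but only in control pool 2. Nlrp2 was therefore tested through its HP spots alone, so its higher ratio in HP is not independent of the filter. The log2 signal was 6.53, 6.77 and 6.50 in HP and 6.38, 6.62 and 6.37 in control, so both groups were dim and overlapped. The log2 ratios were 0.16, 0.14 and 0.13, with a mean of 0.14 ± 0.10 (moderated standard error). The limma p was 0.228, and 0.466 after adjustment. The processed signals of the scanner were 291, 724 and 440 in HP and 134, 548 and 120 in control. They gave log2 ratios of 1.11, 0.40 and 1.88, a mean of 1.13. With median centring the mean was −0.013, so neither size nor direction was settled.

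Nlrp14, a related gene expressed in germ cells and needed for the fertility of females, was well above background in all 6 pools. The log2 signal was 6.90, 7.56 and 7.21 in HP and 7.39, 6.85 and 6.78 in control. The groups overlapped, and the arrays went both ways: replicate 1 was lower in HP and replicates 2 and 3 were higher. The log2 ratios of −0.48, 0.71 and 0.43 gave a mean of 0.22 ± 0.27 (moderated standard error). The limma p was 0.468, and 0.675 after adjustment. The mean was 0.57 without replicate 1 and −0.029 without replicate 2. With median centring it was −0.23.

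Dppa3, also known as Stella or PGC7, protects the maternal genome of the zygote from loss of DNA methylation. Its spot was far from background, with a mean signal of 5111, 6862 and 4856 in the HP pools and 7893, 15205 and 9270 in the control pools. After normalisation the log2 signal was 12.70, 13.33 and 13.01 in HP and 12.55, 12.94 and 12.80 in control. The groups overlapped, with HP above control within each array. The log2 ratios were 0.15, 0.39 and 0.21, with a mean of 0.25 ± 0.11 (moderated standard error). The limma p was 0.0882, and 0.329 after adjustment. The direction of this gene rested on the scaling. With the scanner's log ratios the mean was 0.012. With median centring it was −0.93, beside a median of −0.37 over all tested probes. The limma adjusted p of Dppa3 ran from 0.0475, with median centring, to 0.981 over the settings. Background was no limit for Dppa3, whose spot was between 125 and 543 times its local background.

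**Figure D2:**
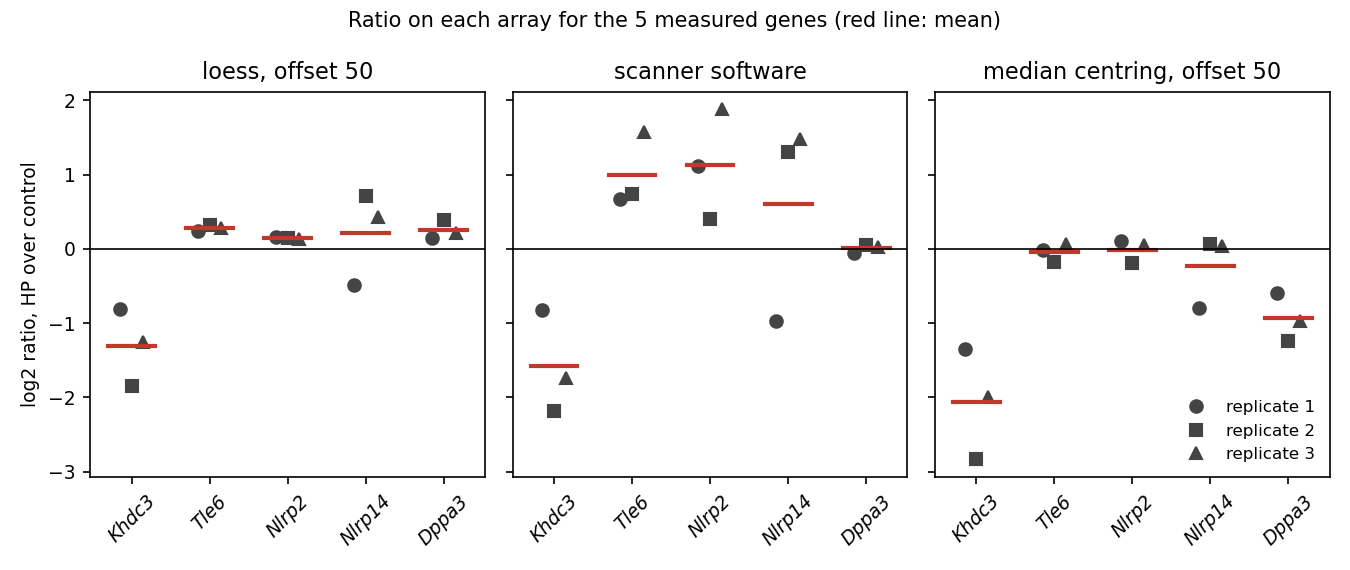
Log2 ratio of HP over control (vertical axis) on each array for the 5 tested genes (horizontal axis), with loess and an offset of 50 (left), with the scanner software's processed signals (middle) and with median centring (right). Symbols are replicates and red lines are means of 3. Khdc3 is below 0 on every array in each panel, whereas the mean of Dppa3 is 0.25, 0.012 and −0.93 from left to right.

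Of the 5 tested genes, Khdc3 had a ratio below 0 on all 3 arrays, as did 24.9% of all tested probes, and Tle6, Nlrp2 and Dppa3 had ratios above 0 on all 3, as did 22.7%. The sign was thus the same on all arrays for 4 of 5 genes and for 47.6% of tested probes. The mean was above 0 for 4 of 5, with Nlrp14 added, and for 47.8% of tested probes. Nlrp2 was tested only through its HP spots, so its part in these counts and in the median below is not independent of the filter. An adjusted limma p under 0.05 was reached by 0 of the 5 and by 0 of 8590 probes (0%). At an unadjusted limma p under 0.05 there was 1 gene, Khdc3, among 10.8% of tested probes that met this in the lower direction and 17.8% in either. None of the 5 changed by at least 2-fold on every array. Such a change was seen in 0.221% of tested probes in the lower and 0.128% in the higher direction. The median ratio of the 5 was 0.22, against −0.02 for all tested probes. A median of 5 selected genes is a description and carries no test.

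Within each array Khdc3 could be set against the other 4 genes, since the pools are the same. The difference from Tle6, the other measured gene of the core complex, was −1.05, −2.17 and −1.53 on arrays 1, 2 and 3, with a mean of −1.58 ± 0.56 (SD, n = 3). From Nlrp2 it was −0.96, −1.99 and −1.39, and from Dppa3 −0.96, −2.24 and −1.47. From Nlrp14 it was −0.32, −2.56 and −1.68. The ratio of Khdc3 was thus the lower in 12 of 12 pairs of gene and array. This held with median centring, with scale normalisation between arrays and without background subtraction. With the scanner's log ratios it held in 11 of 12, the exception being array 1, where Nlrp14 was at −0.97 and Khdc3 at −0.83. With an offset of 0 it also held in 11 of 12, with Nlrp14 at −0.88 on array 1 beside −0.88 for Khdc3. An exact sign-flip test of 3 arrays cannot give a two-sided p under 0.25, so these differences were not tested singly.

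The 5 genes without a test had log2 signals within a narrow band at the low end of the scale. The log2 signal of Nlrp5, the founding NLR protein of the complex, lay between 6.25 and 6.30 in HP and between 6.23 and 6.27 in control. Ooep, which encodes the core protein FLOPED, lay between 6.21 and 6.29 in HP and between 6.21 and 6.27 in control. The range of Padi6, a protein of the cytoplasmic lattices of the oocyte, was 6.25 to 6.33 in HP and 6.25 to 6.29 in control. None of these 3 showed a separation of the groups. For Nlrp5 and Ooep the scanner software had replaced both channels by surrogate values on all arrays, so its log ratio was 0.

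Zar1, which encodes an RNA-binding protein of the oocyte-to-embryo transition, had log2 signals of 6.22, 6.29 and 6.28 in HP and 6.33, 6.34 and 6.33 in control. The groups did not overlap, which held for 25.7% of the tested probes, a set without Zar1. No spot of Zar1 was well above background and the values have no fold. Npm2, a histone chaperone that remodels chromatin after fertilisation, was at 6.34, 6.33 and 6.33 in HP and at 6.33, 6.54 and 6.34 in control. Its raised value in control pool 2 was the only one well above background. Whether these transcripts were absent or the probes did not report them was not tested.

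The 6 pools were not equally far apart. Across tested probes, HP pools 2 and 3 differed by an SD of 0.23 in log2 signal, against 0.45 to 0.63 for the other pairs. For the 5 genes these pools differed by 0.11 to 0.35. With replicates 2 and 3 averaged and counted as 1, the mean of Khdc3 was −1.18 and that of Tle6 0.27. The limma adjusted p of Khdc3 was then 0.433. Between 17.5% and 23.2% of the non-control spots of a channel were well above background, and no spot was saturated. Among 7 oocyte markers 4 were tested (Oosp1, Gdf9, Bmp15 and Zp3), with 6 of 6 probes above 0 in mean ratio, against 47.8% of all tested probes, and a median of 0.60. The Oosp1 probes were at 1.22 and 1.29, Gdf9 at 0.97, Bmp15 at 0.23 and the Zp3 probes at 0.023 and 0.018. Of the 6 probes 3 were above 0 on all arrays, beside 22.7% of all tested probes, and 0 passed adjustment. The summed signal of the oocyte markers over 9 probes was 2441 to 3661 in the HP pools and 1563 to 1949 in the control pools. Its part in the ratios of the genes above was not tested. Early zygotic markers were tested for 5 of 9 genes, and 3 of their 6 probes were higher at an unadjusted limma p under 0.05, beside 7% of all tested probes. These were Tcstv3 at 0.71, Usp17la at 0.56 and Zscan4c at 0.92, with Zfp352 at −0.26 and the Eif1a probes at −0.19 and −0.17, and none passed adjustment. Zscan4c was well above background in 3 HP pools but only 1 control pool. It was thus tested through its HP spots alone, and its higher ratio is not independent of the filter. Cleavage and lineage markers were tested for 4 of 10 genes. The tested probes of Cdh1, Klf5, Tead4 and Tfap2c were well above background in all 6 pools. Their mean ratios were −0.42, −0.13, −0.05 and 0.01. Of the markers not tested, Nanog was not well above background in any pool, and Pou5f1 was so on 1 control array. Of 12 cumulus and granulosa markers 0 were bright enough to test, with 15 of 17 probes never above background. Of 7 sperm markers only Prm1 was tested, and of 6 blood and stromal markers only Hba-a1.

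Genes related to the 10 by complex or family gave few further values. Of 11 genes associated with the complex or of the oocyte NLR family, 8 were on the array and 2 were tested. Nlrp4f had log2 signals of 7.49, 7.04 and 6.81 in HP, and 6.31, 6.39 and 6.38 in control, where 1 of 3 spots was well above background. The groups did not overlap, as in 25.7% of all tested probes. Nlrp4f was tested through its HP spots alone, so this separation and its ratio are not independent of the filter. The mean ratio of Nlrp4f was 0.75 ± 0.18 (limma adjusted p = 0.200), or 0.50 with median centring and 2.79 with the scanner's log ratios. Nlrp4c was at −0.15 ± 0.20 (limma adjusted p = 0.700), or −0.54 with median centring and −0.60 with the scanner's log ratios. Zbed3, which interacts with the complex, and Nlrp4b, Nlrp9b and Nlrp9c had no spot well above background.

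A list of 18 paralogs of the 10 genes also took in Dppa2 and Dppa4, which share a name with Dppa3 but are not close paralogs of it. Of the 18 genes 16 were on the array and 9 were tested with 13 probes. Of these probes 5 had a mean above 0 and 8 below, with a median of −0.19, where 47.8% of all tested probes lay above 0. Dppa2 and Dppa4 were among the 8, at −0.89 and −0.19. At an unadjusted limma p under 0.05 there was 1 higher and 1 lower probe of 13, beside 7% and 10.8% of all tested probes, and 0 at an adjusted p. Khdc1b, a relative of Khdc3 and Ooep, had log2 signals of 11.53, 12.03 and 11.98 in HP and of 11.04, 11.00 and 10.64 in control. Its mean ratio was 0.96 ± 0.20 (limma adjusted p = 0.182), but −0.09 with median centring and 0.935 with the scanner's log ratios. Khdc1a was at −0.22 and −0.19 by its probes with loess, at −0.43 and −1.16 with median centring and at −1.08 and −0.21 with the scanner's log ratios. Tle4, a Groucho corepressor, was at 13.25, 11.78 and 12.05 in HP and at 13.38, 13.20 and 13.29 in control, and HP pool 1 lay above control pool 2. Its ratios were −0.13, −1.43 and −1.24, with a mean of −0.93 ± 0.30 (limma adjusted p = 0.256). The mean was −2.09 with median centring and −1.14 with the scanner's log ratios. Npm1, the ubiquitous relative of Npm2, gave −0.30 and 0.10 by its probes with loess, −1.20 and −1.05 with median centring and −0.28 and −0.10 with the scanner's log ratios. The probes of Padi2, Padi3 and Padi4 were not well above background in any pool.

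All 33 further maternal-effect genes listed were on the array, and 23 were tested with 31 probes. Of these, 21 had a mean above 0 and 10 below, beside 47.8% of all tested probes above 0, with a median of 0.10. At an unadjusted limma p under 0.05, 6 probes were higher and 1 was lower, beside 7% and 10.8% of all tested probes, and none passed adjustment. Kdm1b, a histone demethylase needed for imprints in the oocyte, was at 11.03, 11.23 and 11.33 in HP and 9.52, 8.73 and 9.88 in control. The mean ratio was 1.82 ± 0.26 (limma adjusted p = 0.178), or 0.88 with median centring and 1.935 with the scanner's log ratios. Uhrf1, a cofactor of DNA methylation maintenance, was at 1.31 ± 0.27 by a probe (adjusted p = 0.180) and at 0.033 by another. These were 0.71 and −0.066 with median centring and 2.30 and 0.54 with the scanner's log ratios. Ago2, the slicing Argonaute, was at −1.38 ± 0.17 by a probe (adjusted p = 0.178) and at −0.24 and −0.02 by the others tested, so these genes did not give the same value by all probes. With median centring the Ago2 probes were at −2.04, −0.71 and −0.084, and with the scanner's log ratios at −2.41, −0.44 and 0.27. Btg4, an adaptor of mRNA decay, was at 0.68 ± 0.12 (adjusted p = 0.180), or at −0.0048 with median centring and 1.11 with the scanner's log ratios. Of 7 oocyte transcription factors 2 were tested, Taf4b at −0.40 ± 0.14 (limma adjusted p = 0.278) and Lhx8 at 0.12 ± 0.26 (limma adjusted p = 0.813). Taf4b was tested through its control spots alone and Lhx8 through its HP spots alone, each the group with the higher mean. With the scanner's log ratios they were at −2.0 and 0.98, and with median centring at −0.64 and 0.022.

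**Figure D3:**
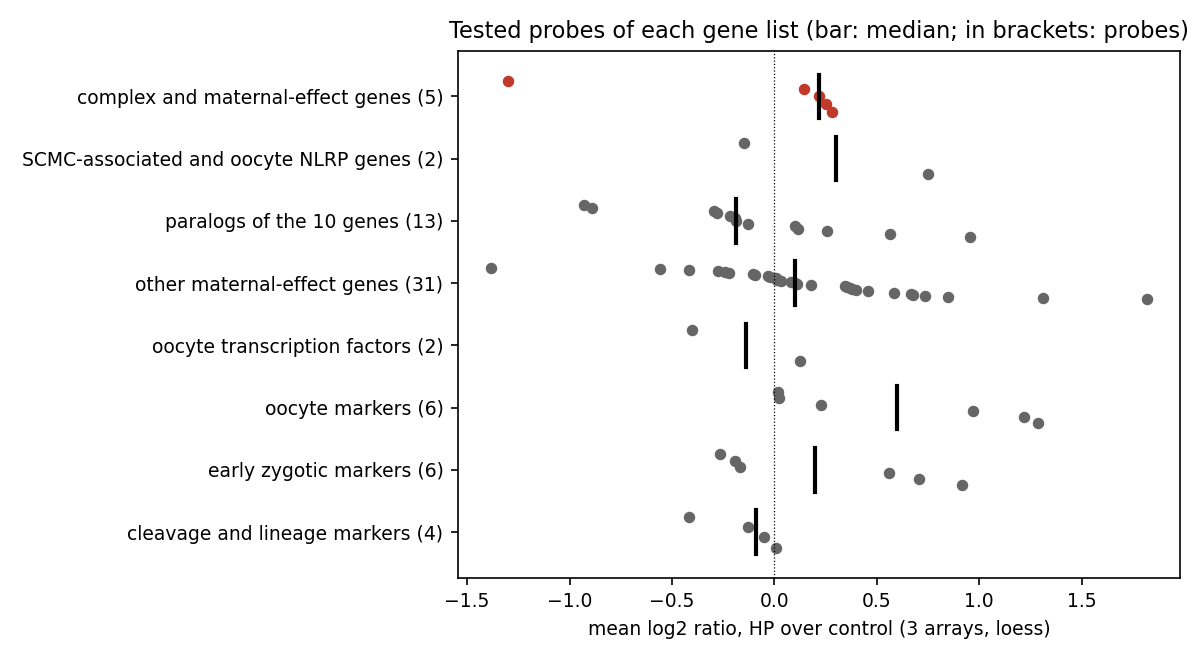
Mean log2 ratio of HP over control with loess (horizontal axis) for each tested probe of the 5 tested genes (red) and of 7 other gene lists (grey), 1 row per list, with the number of probes in brackets and a bar at the median. Khdc3, at −1.30, is the red point apart from 4 others between 0.14 and 0.28, and the medians of the lists lie between −0.19 and 0.60.

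Among tested probes with a matched gene symbol, the 5 most like Khdc3 over the 6 pools were those of Mrps24, Eif3c, Pold3, Trmt5 and Gpat3. Their Pearson r of the log2 signal was from 0.990 to 0.997. They were picked as the closest of those among the 8590 tested probes that had a matched symbol. The pools also share arrays and scaling, so r is a description. Pold3, a subunit of DNA polymerase delta, was at 8.37, 7.72 and 7.86 in HP and at 8.92, 8.99 and 8.82 in control, a mean ratio of −0.93. Gpat3, an acyltransferase of lipid synthesis, had a mean ratio of −0.76. Mrps24, Eif3c and Trmt5 had mean ratios of −0.48, −0.42 and −0.47. In each of them, as in Khdc3, HP pool 1 was the highest of the HP pools. This order and the ratios below 0 come with the choice by r and are not a further result.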

How the data were processed

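Total RNA from each pool (240 pg) was amplified in a pair of rounds (TrueLabeling-PicoAMP) and then dye-coupled, per the labels' protocols. Agilent Feature Extraction 9.5.1.1 is the software in the submitters' processing notes. The deposited spot means and local background medians are intensity values with nothing subtracted, while the processed signal columns deposited beside them hold intensity after detrending and dye normalisation, per the file headers. The deposited log10 ratios (Cy5 over Cy3 processed signal) recur in the authors' series table.

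Here limma 3.58.1 (R 4.3.3) was used for normexp background correction (offset 50) and loess with control spots at weight 0. Outlier spots were dropped (172 to 325 per array) and spots of a probe averaged. An intercept was fitted to the ratios of the 3 arrays and moderated by empirical Bayes (2 residual and 2.07 prior degrees of freedom), and p-values were adjusted by Benjamini-Hochberg across the 8590 tested. The within-array ratio pairs pools of 1 replicate number, a pairing set by the shared array. Symbols came from RefSeq by accession (22951 probes), symbol (6659) or synonym (3109), and 8455 kept the name in the tables. The genes, lists and tests were chosen with earlier results of these data known. The named-gene rule took all 10 genes and up to 4 genes per list by smallest p. It also took the 5 probes with a matched symbol nearest in pattern to the gene with the smallest p. Further genes were named once their values had been seen. The other settings are those of the closing section and the following. Ratios were also taken with an offset of 0 and with scale normalisation between arrays. Further fits used trended and robust moderation, or ratios with the trend on probe GC content removed. The number of arrays limits the precision.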

Additional observations from a re-analysis of the deposited data

How the results depend on the processing

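Khdc3 was below 0 in all 16 settings, but those that only reuse, leave out or reweight its 3 ratios could not have turned it. With median centring 2 genes passed adjustment (Khdc3 and Dppa3), and in each other setting no gene that was fitted had a limma adjusted p under 0.05. Median centring also turned Tle6 to −0.040, Nlrp2 to −0.013, Nlrp14 to −0.23 and Dppa3 to −0.93, and the median of the 5 to −0.23. It leaves the trend with intensity that loess removes, which moved the median of all tested probes to −0.37, with 1139 probes past adjustment and 2978 at an unadjusted p under 0.05 (1527 with loess). Genes at an unadjusted p under 0.05 (1 of 5 with loess) numbered 3 with the scanner's log ratios and with the series table, 2 without background subtraction, with median centring and with array weights, and 4 without the filter on dim probes. Of all 8590 tested probes 1474 met this with the scanner's log ratios and the series table, 1696 without background subtraction and 2078 with array weights. The median of the 5 was 0.60 with the scanner's log ratios and the series table. Without the filter 2585 of 41174 probes had an unadjusted p under 0.05, and 973 did with replicates 2 and 3 counted as 1. Leaving out 1 replicate gave 797 to 2130 such probes and 1 to 2 such genes, and moved Nlrp14 from −0.029 (without replicate 2) to 0.57 (without replicate 1). With separate channels and no replicate block, no call changed (Khdc3 adjusted p = 0.0956). With the scanner's log ratios the list medians were 1.09 for genes associated with the complex (0.30 with loess), 0.50 for other maternal-effect genes (0.10) and −0.51 for oocyte transcription factors (−0.14). With median centring they were −1.05 for the genes listed as paralogs (−0.19), −0.23 for other maternal-effect genes and −0.020 for genes associated with the complex. Signal over background limits Nlrp2 and Tle6, and Nlrp2 has no value where both channels were required. It was also low for Nlrp14 in HP pool 1, at 2.13, and was 3.07 for Khdc3 in HP pool 3. Apart from the construction of median centring, the causes of these shifts were not tested.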
